A study of Mus musculus with 18 samples.

Results

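The 6 liver libraries of the series, 3 from mice given RECTAS and 3 from mice given the vehicle, were compared with each other. They were taken by the tissue and condition given in the labels, out of 18 libraries that also cover lung and colon. Of 55401 genes listed per library, 11944 reached a level of 1 TPM (a gene's length-adjusted share of all transcripts) in at least 3 of the 6 liver libraries, 10938 of them protein coding, and these were tested. The remaining genes did not reach it in 3 libraries and were not tested in liver. All mice were C57BL/6N, 7 weeks old. The treated mice were given RECTAS by mouth at 100 mg/kg, suspended in 0.5% carboxymethyl cellulose (CMC), with a second dose after 4 h, and the vehicle mice were given CMC alone on the same schedule. The livers of both groups were taken 8 h after the first dose, so every value is from a single early time. The mice carried no transgene that the labels name. Whether each library of a group is from its own animal is not in the labels, so a p-value here reflects only how much these samples scatter, which may be technical.

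RECTAS, short for rectifier of aberrant splicing, is a small molecule found for its ability to correct the skipping of an exon in a mis-spliced transcript. It is known to act through the CDC-like kinases (CLK), which phosphorylate SR proteins, the RNA-binding proteins that help the spliceosome recognise exons, SRSF6 among them. The liver is the first organ reached by compounds absorbed from the gut. Its hepatocytes sense foreign compounds through nuclear receptors such as CAR and PXR and oxidise and conjugate them. Electrophiles and oxidants release the transcription factor NRF2 from its inhibitor KEAP1, and NRF2 then drives the genes of glutathione synthesis, thioredoxin reduction and conjugation. Glucocorticoids, through their receptor, drive gluconeogenic enzymes and a set of feedback genes that includes Ddit4 and Tsc22d3. The deposited values are per gene, so they report how much RNA a gene had and not which exons were used.

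The liver label was borne out by hepatocyte genes in each library. Alb, which encodes albumin, stood at 62112, 71491 and 57361 TPM in vehicle libraries 1, 2 and 3 and at 74264, 75688 and 68337 TPM in RECTAS libraries 1, 2 and 3. The apolipoprotein gene Apoa1 ranged from 10703 to 15378 TPM, and the cytochrome P450 gene Cyp2e1 from 4190 to 5934 TPM. None of these 3 markers had groups that lay apart. Of 8 pancreatic acinar markers 6, and of 5 adipose markers 3, were listed at 0 in all 6 libraries, and the 4 alveolar markers together summed to at most 1.56 TPM. Intestinal epithelium markers summed to 51.9 to 81.3 TPM under vehicle and 69.9 to 76.6 TPM under RECTAS, nearly all of it from Fabp2 and Lgals4, and 1 of the 7 (Phgr1) was at 0 in all 6. The 20 highest genes held 35.4% to 37.5% of all TPM, and the mitochondrial genome 13.1% to 14.5%. The depth behind each value is unknown, because TPM keeps none. Xist was present at 62.1 to 106 TPM and 4 Y-linked genes were listed at 0 in every liver library, while the labels give no sex.

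**Figure D1:**
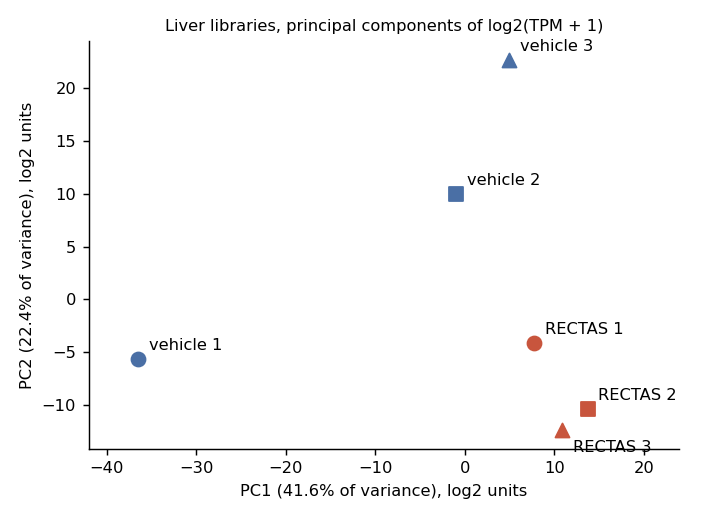
Principal components of log2(TPM + 1) over the 11944 genes tested, with 1 point per liver library. Vehicle library 1 lies at −36.5 on the first axis (41.6% of variance), and the other 5 libraries lie between −0.98 and 13.7.

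Vehicle library 1 stood apart from the other 5. Its Pearson correlation with them, on log2(TPM + 1) over the genes tested, was 0.971 to 0.980, against 0.984 to 0.990 among the rest. In that library 344 genes differed more than 2-fold from the median of the other 5 (119 higher, 225 lower), against 88 to 135 genes in each other library. Mup15, a major urinary protein gene, stood at 1.58 TPM there and at 198 to 420 TPM elsewhere. Alas1, the rate-limiting enzyme of haem synthesis, stood at 62.3 TPM against 430 to 972 TPM. Gsta2, a glutathione transferase, went the other way, with 79.5 TPM against 8.60 to 19.6 TPM. Periportal and amino acid genes were also high in it: Ass1, an enzyme of the urea cycle, stood at 4530 TPM there and at 1841 to 2334 TPM in the rest. What set this library apart was not tested, and the main lists are given with and without it.

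At an adjusted p under 0.05 (limma with Benjamini-Hochberg adjustment), 2 of 11944 genes rose (0.0167%), Ddit4 and Gm44313, and 0 fell (0%). At an unadjusted p under 0.05 there were 429 higher genes (3.59%) and 959 lower genes (8.03%). In 687 genes (5.75%) every RECTAS library lay above every vehicle library, and in 1549 (13%) every RECTAS library lay below. By sign alone, 4774 of the 11944 genes were higher and 7170 lower, and 3876 were higher without vehicle library 1. These counts and the 2 pairs of shares are the background against which the counts of list members below are given. Leaving out 1 library moved the number of higher genes most for RECTAS library 3 (253) and vehicle library 3 (629), and the number of lower genes most for RECTAS library 2 (521). The split depended on scaling: of the genes with an unadjusted p under 0.05, 30.9% were higher with TPM as deposited, 55.7% after median ratio scaling and 51.4% after quantile normalisation. The shares of all genes under the unadjusted threshold were then 6.29% higher and 5% lower after median ratio scaling. The median log2 difference over all genes tested was −0.04, and 0.01 after median ratio scaling. Without vehicle library 1, 5 genes rose (0.0419%) and 1 fell (0.00837%): Ddit4, Gm44313, Angptl4, Tsc22d3 and Srxn1 rose, and Luc7l2 fell. Unadjusted, 3.16% were then higher and 8.24% lower. The number called fell to 1 when RECTAS library 2, RECTAS library 3 or vehicle library 3 was left out instead.

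Ddit4 encodes REDD1, an inhibitor of the growth kinase complex mTORC1 that is induced by stress and glucocorticoids. The gene lies on the minus strand of chromosome 10 (59949669 to 59951834, GRCm38). Its values were 2.52, 4.43 and 3.67 TPM under vehicle and 22.2, 24.2 and 19.7 TPM under RECTAS. The RECTAS libraries lay close together and far above all vehicle libraries. Ddit4 rose 6.23-fold, by 2.36 (SE 0.17) on the log2(TPM + 1) scale, where differences of low genes come out too small (limma adjusted p = 0.013, range over 16 alternatives 0.000233 to 0.173). The direction was the same in every alternative, but the call was lost without vehicle library 3 (adjusted p = 0.0883) and without RECTAS library 1 (0.0788), 2 (0.173) or 3 (0.0926). It was also lost when genes of any level were tested (0.0778) and with a block for the replicate number (0.0814).

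Gm44313 is annotated as a miRNA gene of 138 nt on the minus strand of chromosome 11 (58954983 to 58955120, GRCm38). It was listed at 0 in the 3 vehicle libraries and in the RECTAS libraries at 18.2, 21.2 and 11.1 TPM (limma adjusted p = 0.00337, range over alternatives 0.000379 to 0.143). It passed the filter on low values only through the RECTAS libraries, so a difference in its favour was built into its being tested. The call was lost in a joint fit of the 18 libraries (adjusted p = 0.143) and under the block (0.0518). The sequence is printed here because the whole of it lies opposite a protein-coding histone gene:

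Gm44313: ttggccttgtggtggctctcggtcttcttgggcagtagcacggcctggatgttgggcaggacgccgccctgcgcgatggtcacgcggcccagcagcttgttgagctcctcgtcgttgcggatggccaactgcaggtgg

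All 138 bases lie within, and antisense to, the coding sequence of H2aw, an H2A histone gene on the plus strand (58954738 to 58955127). Of the 109 windows of 30 nt in this sequence, some recur in 25 other annotated genes on the same strand and in 26 on the opposite strand, of which 21 are named as H2A genes. Reads from near-identical H2A copies could have been divided among them in ways that cannot be seen here, and whether strand was used in counting is not given in the sources used here. H2aw itself stood at 3.23, 2.70 and 2.36 TPM under vehicle and at 2.67, 2.39 and 1.65 TPM under RECTAS, with overlapping groups. Summed over Gm44313 and the 25 same-strand genes, the values were 90.4, 2.41 and 35.5 TPM under vehicle and 19.9, 73.7 and 52.5 TPM under RECTAS. The clean separation at Gm44313 was thus not seen in that sum, where vehicle library 1 was the highest of the 6. The genes summed are not equally close to Gm44313, sharing from 1 to 68 of its 109 windows. The largest values in vehicle library 1 were 34.5 TPM at Gm44364 and 15.6 TPM at Gm44335, which share 17 and 29. Gm19658 and Gm44314, which share 68, stood at 0 in every liver library but RECTAS library 2 (5.69 TPM). In the other tissues Gm44313 itself varied from 0 to 31.6 TPM in colon and from 0.46 to 53.4 TPM in lung. Values of a gene this short rest on few fragment positions.

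**Figure D2:**
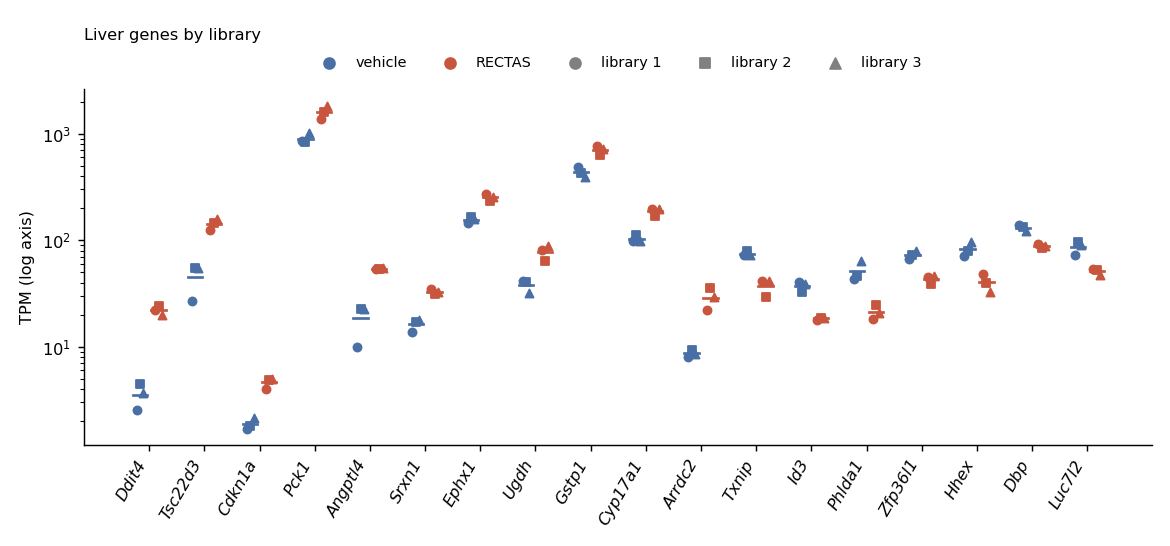
TPM (log axis) of 18 genes in each liver library, vehicle in blue and RECTAS in red, with a horizontal bar at each group mean and the library number as the marker shape. Ddit4 stands at 2.52 to 4.43 TPM under vehicle and 19.7 to 24.2 TPM under RECTAS, and vehicle library 1 is the lowest point for Tsc22d3 and Angptl4.

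Genes that glucocorticoids induce had the largest median difference of the lists examined with 5 or more genes. Of 28 tested members 23 were higher, 13 of them and 0 lower members at an unadjusted p under 0.05, and 1 (Ddit4) was called. The groups lay apart in 11 higher members and 2 lower ones. The median log2 difference was 0.62, and 0.49 without vehicle library 1, where 15 higher members and 1 lower one were under the unadjusted threshold. The list also holds genes of other signals, such as fasting and cyclic AMP. Tsc22d3 encodes GILZ, a feedback mediator of glucocorticoid action. It stood at 27.0, 54.8 and 54.9 TPM under vehicle and at 124, 144 and 159 TPM under RECTAS. Vehicle library 1 was the lowest, and no RECTAS library came near the vehicle range. The log2 difference was 1.68 (SE 0.27, limma adjusted p = 0.15), and without vehicle library 1 Tsc22d3 rose by 1.35 (adjusted p = 0.0257). With any other library left out, Tsc22d3 was not called (limma adjusted p of 0.233 to 0.491). Cdkn1a, the cell cycle inhibitor p21, stood at 1.70, 1.80 and 2.15 TPM against 3.96, 4.88 and 5.02 TPM. Sgk1, a kinase that regulates ion transport, stood at 15.8, 13.4 and 15.7 TPM against 21.1, 20.5 and 20.3 TPM. The groups of both genes lay apart, by 2.45-fold for Cdkn1a and by a log2 difference of 0.44 for Sgk1.

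Tat and Pck1, hepatic enzymes of the same list, were higher in every RECTAS library than in any vehicle library. Tat, tyrosine aminotransferase, stood at 746, 566 and 534 TPM under vehicle and at 1008, 1207 and 1580 TPM under RECTAS, a 2.05-fold difference (limma adjusted p = 0.176). Pck1, the gluconeogenic enzyme that makes phosphoenolpyruvate, stood at 856, 832 and 1007 TPM against 1365, 1595 and 1840 TPM. Klf15, a transcription factor of amino acid use in fasting, stood at 84.4, 66.2 and 77.7 TPM against 103, 117 and 131 TPM. No library of one group entered the range of the other for these 3 genes. Angptl4, an inhibitor of lipoprotein lipase, stood at 9.97, 22.8 and 22.6 TPM under vehicle against 53.2, 53.6 and 54.4 TPM under RECTAS (limma adjusted p = 0.175). The RECTAS values of Angptl4 lay within about 1 TPM of each other, and without vehicle library 1 the gene rose by 1.21 on the log2 scale (limma adjusted p = 0.00438). With any other library left out, Angptl4 was not called (limma adjusted p of 0.262 to 0.513).

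Other classic members overlapped between the groups or were lower under RECTAS. Fkbp5, a chaperone of the glucocorticoid receptor, stood at 33.4, 52.5 and 49.1 TPM against 59.1, 43.7 and 48.4 TPM. Per1, a clock gene with glucocorticoid input, stood at 4.72, 8.24 and 17.9 TPM against 13.3, 17.6 and 24 TPM. The metallothionein genes pointed the other way: Mt2 stood at 986, 508 and 432 TPM against 387, 378 and 408 TPM, with the highest value in vehicle library 1. The groups of Mt2 lay apart, with RECTAS lower. The receptor gene Nr3c1 differed by −0.28 on the log2 scale (SE 0.15, limma adjusted p = 0.511). Log2 differences within the list ran from −0.62 to 2.36.

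The imperfect palindrome bound by the glucocorticoid receptor was searched in RefSeq promoters (GRCm38.p6, only the 250 bases before the start, both strands) as GNACA and TGTNC with any 3 bases between them. It was found in 2 of 23 list members with a promoter (8.7%), Sgk1 and Mt1, against 0.44% of all 27025 genes with a promoter. The stretch of the Sgk1 promoter with the match in capitals is shown because Sgk1 had separated groups while Mt1 did not (chr10:21993672-21993744, plus strand). A match is a description of these letters and says nothing of binding.

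Sgk1: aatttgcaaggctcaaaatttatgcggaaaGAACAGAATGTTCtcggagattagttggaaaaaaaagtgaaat

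Regulators of mTORC1, Ddit4 among them, lay on both sides. Of 28 tested regulators 12 were higher, with a median of −0.03 that turned to 0.005 after median ratio scaling. At an unadjusted p under 0.05 lay 2 higher and 4 lower members, and the groups were apart in 2 higher and 5 lower ones. The 4 lower were 6 without RECTAS library 1 or vehicle library 2 and 2 without RECTAS library 2 or 3. Apart from Ddit4, only Sesn2 was higher under that threshold. Sesn2 encodes a leucine-sensing sestrin, at 2.63, 2.21 and 1.90 TPM against 3.15, 2.76 and 3.44 TPM. Flcn, which encodes folliculin, a GTPase activator at the lysosome, stood at 28.8, 24.4 and 27.7 TPM against 22.5, 17.1 and 16.4 TPM. Its partner Fnip1 stood at 8.91, 7.29 and 8.08 TPM against 7.06, 5.25 and 4.82 TPM, and Tsc1 at 8.73, 6.52 and 6.31 TPM against 5.59, 4.59 and 4.64 TPM. These 3 genes had separated groups with RECTAS lower, at limma adjusted p values of 0.282, 0.357 and 0.333.

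NRF2 targets were higher in 26 of 29 tested members, 13 at an unadjusted p under 0.05 with 0 lower, and 14 had groups apart with 0 lower. None was called (0 by limma at an adjusted p under 0.05). The number of higher members under the unadjusted threshold was 9 to 13 when any 1 library was left out. The median log2 difference was 0.27, 0.17 without vehicle library 1 and 0.32 after median ratio scaling. Srxn1, sulfiredoxin, which reactivates oxidised peroxiredoxins, stood at 13.8, 17.1 and 17.9 TPM under vehicle and at 34.9, 31.4 and 32.4 TPM under RECTAS. The gap between the groups was wider than either group's range. Its difference was 0.98 on the log2 scale (SE 0.11, limma adjusted p = 0.0674, range over alternatives 0.002 to 0.434). It was called without vehicle library 1 (adjusted p = 0.0432), after median ratio scaling (0.0388) and after quantile normalisation (0.0489). Txnrd1, thioredoxin reductase, stood at 39.7, 48.2 and 49.3 TPM against 64.0, 62.1 and 70.1 TPM. Gclc, the catalytic subunit of the enzyme that limits glutathione synthesis, stood at 61.6, 56.0 and 57.1 TPM against 98.4, 71.9 and 96.8 TPM. Its modifier subunit Gclm overlapped between groups, at 117, 150 and 141 TPM against 162, 147 and 152 TPM. Gsr, glutathione reductase, stood at 23.2, 25.2 and 26.1 TPM against 38.7, 31.2 and 32.3 TPM.

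Among the other members of the NRF2 list, Ugdh makes the UDP-glucuronate used in glucuronidation and stood at 41.6, 40.6 and 31.6 TPM against 81.3, 63.8 and 88.1 TPM, a 2.05-fold difference (limma adjusted p = 0.15). Ephx1, microsomal epoxide hydrolase, stood at 144, 165 and 157 TPM against 272, 234 and 253 TPM. Nqo1, a quinone reductase, stood at 7.80, 4.58 and 4.36 TPM against 11.9, 8.54 and 9.57 TPM. Sqstm1, the autophagy receptor p62 that binds KEAP1, stood at 250, 239 and 245 TPM against 321, 300.3 and 320 TPM, a 1.28-fold difference with little spread in either group. Hmox1, haem oxygenase, did not differ detectably, at 17.9, 12 and 15.3 TPM against 13.1, 12.6 and 20 TPM. Nfe2l2 and Keap1, the genes of NRF2 and its inhibitor, differed by −0.05 and 0.16 on the log2 scale, with overlapping groups for Nfe2l2. The pentose phosphate genes Pgd, Tkt and Taldo1 also overlapped between the groups.

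Glutathione transferases attach glutathione to electrophiles. Of 22 tested, 13 were higher, with 7 higher and 0 lower at an unadjusted p under 0.05 and a median of 0.10. Without vehicle library 1, in which the alpha-class genes Gsta1, Gsta2 and Gsta4 were high, 17 were higher and the median was 0.24, with 10 under the unadjusted threshold. The median was 0.03 without vehicle library 3, with 11 higher, and leaving out RECTAS library 3 gave 0.04, vehicle library 2 gave 0.07 and RECTAS library 2 gave 0.18. Gstp2 stood at 6.40, 7.30 and 7.95 TPM under vehicle and at 22.2, 27.4 and 37.3 TPM under RECTAS. The lowest RECTAS value was well above the highest vehicle value, a 4.02-fold difference (limma adjusted p = 0.0603). Gstp1 stood at 486, 425 and 395 TPM against 770, 629 and 719 TPM, while Gstp3 overlapped between groups, at 63.0, 54.5 and 48.1 TPM against 63.8, 47.6 and 64.6 TPM. Gstp1 and Gstp2 are near-identical neighbours, so the share of reads given to each is uncertain. Among the mu class, Gstm1, Gstm2, Gstm4 and Gstm5 had separated groups, with Gstm2 at 84.0, 82.6 and 76.2 TPM against 113, 105 and 107 TPM, whereas Gstm3, Gstm6 and Gstm7 overlapped.

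The core of the antioxidant response element that NRF2 binds with small MAF proteins, TGACNNNGC, was searched in the same promoter windows on both strands. It was found in 8 of 25 NRF2 targets with a promoter (32%) and in 4 of 20 glutathione transferases (20%). The share was 11.5% over all genes with a promoter. The same letters were found in 6 of 31 proteasome and VCP genes with a promoter (19.4%). The 3 stretches below, from RefSeq GRCm38.p6, show matches in capitals in members whose groups were apart. Ugdh is on the minus strand (chr5:65435898-65436004) and holds 2 matches, in opposite orientations. Txnrd1 (chr10:82859084-82859152) and Gstm5 (chr3:107895782-107895850) are on the plus strand and hold 1 each.

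Ugdh: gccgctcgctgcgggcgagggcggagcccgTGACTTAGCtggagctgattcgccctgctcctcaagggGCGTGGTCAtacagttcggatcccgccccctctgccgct

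Txnrd1: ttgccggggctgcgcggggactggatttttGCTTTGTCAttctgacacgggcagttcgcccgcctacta

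Gstm5: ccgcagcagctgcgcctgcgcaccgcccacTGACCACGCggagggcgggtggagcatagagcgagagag

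Proteasome genes differed by small amounts, all in the same direction with the 6 libraries. The proteasome is the protease that degrades ubiquitin-tagged proteins, and VCP is the segregase that delivers many of them. All 37 members tested were higher, 19 at an unadjusted p under 0.05, with groups apart in 26, and 0 were called. Log2 differences ran from 0.02 to 0.44 with a median of 0.20, against −0.04 over all genes tested. Without vehicle library 1, which held the lowest level of the list, 34 of 37 were higher with a median of 0.13, and 12 were under the unadjusted threshold. That number lay between 10 and 13 when vehicle library 2 or any RECTAS library was left out, and at 22 when vehicle library 3 was. Of the regulatory particle, Psmd11 stood at 43.8, 46.4 and 46.8 TPM under vehicle and at 61.4, 60.2 and 54.3 TPM under RECTAS. Psmd14, the deubiquitinase of the lid, stood at 32.2, 35.9 and 37.2 TPM against 45.7, 43.4 and 48.5 TPM, and the ubiquitin receptor Adrm1 at 56.9, 72.1 and 80.0 TPM against 91.9, 95.3 and 95.1 TPM. Of the core particle, Psma5 stood at 48.8, 56.0 and 57.4 TPM against 67.8, 65.9 and 67.9 TPM. For all of these, the vehicle libraries lay wholly below the RECTAS libraries.

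**Figure D3:**
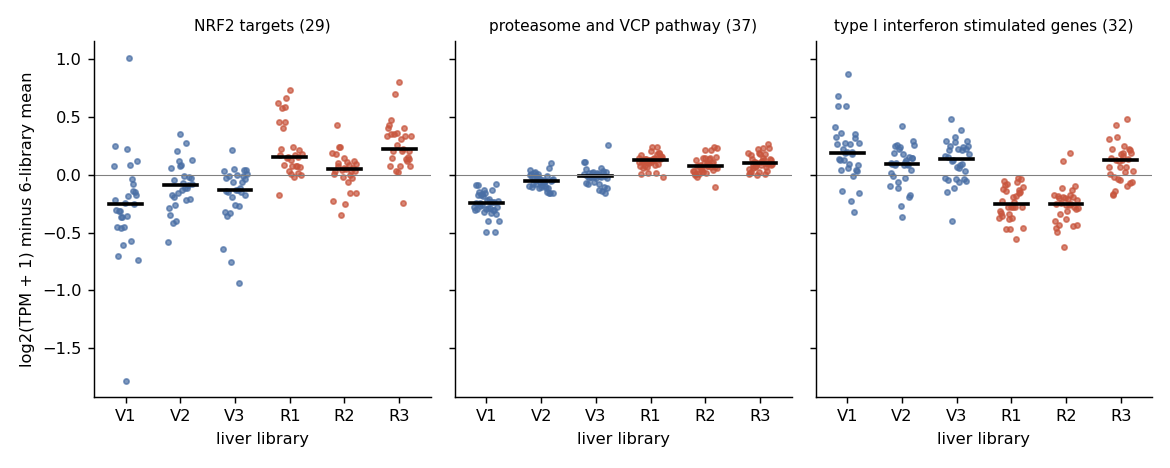
Each point is 1 gene of the NRF2, proteasome and VCP, or type I interferon list in 1 liver library (V1 to V3 vehicle, R1 to R3 RECTAS), as log2(TPM + 1) minus its mean over the 6 libraries, with black bars at the medians. Proteasome medians are −0.24, −0.05 and −0.01 under vehicle and 0.13, 0.07 and 0.10 under RECTAS, and the interferon median of RECTAS library 3 (0.12) lies among the vehicle libraries.

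Chaperone genes were higher to a like extent. Of 25 cytosolic heat shock chaperones 23 were higher, with 8 at an unadjusted p under 0.05, 0 lower, and groups apart in 7. Their median was 0.27, and 0.16 without vehicle library 1, in which they were lowest. The number under the unadjusted threshold depended on single libraries: leaving out RECTAS library 3 gave 2, RECTAS library 2 gave 3, vehicle library 1 gave 4, vehicle library 2 gave 5 and vehicle library 3 gave 12. Dnaja1, a co-chaperone of HSP70, stood at 104, 133 and 143 TPM against 160, 165 and 192 TPM. Hspa8, the constitutive HSP70, stood at 473, 614 and 707 TPM against 736, 776 and 981 TPM, so vehicle library 3 nearly reached RECTAS library 1. In the endoplasmic reticulum, Herpud1, a scaffold of protein degradation there, stood at 193, 258 and 207 TPM against 305, 330 and 358 TPM. The unfolded protein response list as a whole did not lean as far: 17 of 28 were higher with a median of 0.09, which was −0.04 without vehicle library 1 and 0.04 to 0.16 without any other. ATF4 targets, the genes of the integrated stress response that include Ddit4, were higher in 17 of 22, with 6 under the unadjusted threshold (1 to 3 without any library but vehicle library 3) and a median of 0.16. The groups of Trib3 and Chac1, 2 well-known ATF4 targets, overlapped, with log2 differences of −0.46 and −0.22.

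Drug metabolism genes lay on both sides. Of 38 CAR and PXR targets 28 were higher, with 11 higher and 1 lower at an unadjusted p under 0.05 and a median of 0.21 (0.10 without vehicle library 1). Ugt2b35, a glucuronosyltransferase, stood at 43.7, 55.4 and 67.3 TPM against 108, 96.5 and 92.6 TPM. Cyp2a5, a cytochrome P450 that oxidises coumarin, stood at 519, 458 and 362 TPM against 815, 626 and 1125 TPM. Nr1i2, the gene of PXR itself, stood at 29.9, 28.2 and 25.7 TPM against 35.9, 34.8 and 45.8 TPM. The groups of these 3 genes lay apart. Sult2a1, a sulfotransferase of steroids and bile acids, was the most variable, at 6.76, 28.8 and 4.36 TPM against 80.3, 36.5 and 154 TPM. Cyp3a11, the main PXR-induced cytochrome P450 of mouse liver, was the 1 lower member under the unadjusted threshold, at 427, 348 and 348 TPM against 233, 294 and 176 TPM. Without RECTAS library 3 the higher members under the unadjusted threshold numbered 5, without RECTAS library 1 or vehicle library 3 they numbered 7, and without vehicle library 3 there were 5 lower ones. Among AhR targets Cyp1a2 stood at 271, 307 and 324 TPM against 384, 433 and 456 TPM, while Cyp1a1 lay under the filter on low values.

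Cyp17a1, a steroid hydroxylase, had one of the tightest separations. It stood at 97.9, 112 and 98.3 TPM under vehicle and at 198, 171 and 196 TPM under RECTAS, a 1.83-fold difference (log2 0.87, SE 0.09, limma adjusted p = 0.0603). It was called after median ratio scaling (adjusted p = 0.0388) and with robust variance (0.0468). It was not called without RECTAS library 3 (limma adjusted p = 0.42) or with the replicate block (0.306). Entpd5, a nucleotide phosphatase of the endoplasmic reticulum, stood at 48.7, 51.8 and 47.7 TPM against 86.3, 70.1 and 82.7 TPM. Ikbkg, which encodes NEMO, the regulatory subunit of the IκB kinase, stood at 14.7, 18.4 and 17.5 TPM against 35.5, 26.5 and 27.9 TPM. Lcp1, an actin-bundling protein of leukocytes, stood at 37.4, 36.3 and 38.6 TPM against 50.4, 48.5 and 54.3 TPM. Summed macrophage markers overlapped between the groups (402.8 to 523.5 TPM against 337.2 to 603.7 TPM).

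The alpha-arrestins, adaptor proteins that send membrane transporters and receptors to degradation, diverged. Arrdc2 stood at 8.04, 9.39 and 8.45 TPM under vehicle and at 21.9, 35.4 and 29.1 TPM under RECTAS. Vehicle values lay within 2 TPM of each other and every RECTAS value was far above the highest of them. The fold was 3.34 (log2 1.61, SE 0.17, limma adjusted p = 0.0603), and the gene was called with robust variance (0.0468) and without RECTAS library 1 (0.0359). It was not called without RECTAS library 3 (limma adjusted p = 0.42) or with the replicate block (0.131). Txnip, which inhibits thioredoxin and glucose uptake, stood at 72.2, 79.7 and 72.5 TPM against 41.5, 29.3 and 41.2 TPM, 2.0-fold lower under RECTAS (log2 −1.0, SE 0.14, adjusted p = 0.138). Arrdc3 was lower on average but scattered, at 77.4, 49.6 and 12.9 TPM against 22.6, 8.68 and 8.66 TPM. Arrdc1 and Arrdc4 overlapped between groups. In the list of glucose metabolism genes, Pck1 among them, 18 of 23 were higher with a median of 0.08, which was −0.03 without vehicle library 1 and 0.07 to 0.17 without any other.

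Lower genes with small p values and separated groups included Id3, Phlda1, Hhex and Zfp36l1. Id3, an inhibitor of basic helix-loop-helix factors and a target of BMP signalling, stood at 40.5, 32.3 and 39.1 TPM under vehicle and at 18, 18.8 and 18.5 TPM under RECTAS. The 3 RECTAS values nearly coincided and lay far below the lowest vehicle value (2.03-fold lower, log2 −0.97, SE 0.10, limma adjusted p = 0.0603, and 0.0468 with robust variance). Id3 was not called without RECTAS library 3 (limma adjusted p = 0.42) or with the replicate block (0.306). Phlda1, a pleckstrin-homology-like protein that responds to growth factors, stood at 43.0, 46.2 and 63.4 TPM against 18.1, 24.9 and 20.5 TPM. Hhex, a homeobox factor of liver development, stood at 70.9, 78.6 and 96.2 TPM against 47.9, 39.8 and 32.9 TPM. Zfp36l1, which promotes decay of mRNAs with AU-rich elements, stood at 66.4, 73.1 and 78.8 TPM against 45.5, 38.5 and 46.3 TPM. The last 3 were 2.40-fold, 2.04-fold and 1.67-fold lower, with limma adjusted p values of 0.138, 0.15 and 0.138.

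Immediate early genes, which serum and stress induce within minutes, varied too widely within groups to separate. Of 24 tested, 15 were lower, 3 at an unadjusted p under 0.05, and 0 higher. The 15 of 24 lay near the share over all genes tested, where 7170 of 11944 were lower. The median was −0.15, but leaving out vehicle library 1, 2 or 3 gave −0.43, −0.10 and 0.13, and leaving out RECTAS library 1 or 3 gave −0.04 and −0.32. The 3 lower members were 8 without vehicle library 1, where 19 of 24 were lower, 2 without RECTAS library 1 and 1 without RECTAS library 2 or vehicle library 2 or 3. Junb was the 1 member with groups apart, at 38.3, 56.0 and 49.6 TPM against 14.8, 18.9 and 33.2 TPM. Egr1 shows the scatter, at 9.44, 66.6 and 67.3 TPM against 13.2, 20.6 and 53.1 TPM, as does Myc, at 1.89, 12.6 and 34.4 TPM against 7.01, 6.65 and 4.26 TPM. For both genes vehicle library 1 was the lowest of the 6 and vehicle library 3 the highest.

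Outputs of the circadian clock were low under RECTAS in part. Dbp, an output transcription factor driven by the CLOCK complex, stood at 138, 132 and 122 TPM against 91.9, 85.1 and 87.9 TPM (1.48-fold lower, log2 −0.56, limma adjusted p = 0.138). Its relative Tef stood at 78.2, 85.6 and 85.5 TPM against 73.4, 58.0 and 65.5 TPM. The repressor gene Nr1d1 stood at 89.3, 50.9 and 42.5 TPM against 40.7, 35.9 and 28.5 TPM. Other members went the opposite way: Noct, a deadenylase-like clock output, stood at 9.80, 10.3 and 29.0 TPM against 23.5, 39.8 and 56.6 TPM, and Ciart at 6.6, 12.6 and 23.7 TPM against 18.3, 35.2 and 39.9 TPM. Of 22 clock genes 9 were higher, with 3 higher and 5 lower at an unadjusted p under 0.05. The 9 of 22 lay near the share over all genes tested, where 4774 of 11944 were higher. The 3 higher ones were 1 without RECTAS library 3 or vehicle library 1 or 2, and 2 without RECTAS library 2. They were 4 without vehicle library 3. The 5 lower ones were 2 without RECTAS library 2 and 3 without RECTAS library 3 or vehicle library 1. Clock genes change with the hour, and the hour at which each liver was taken is not in the labels.

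Interferon-stimulated genes, the antiviral genes that interferons induce, were mostly lower. Of 32 type I members tested 29 were lower, with 13 lower and 0 higher at an unadjusted p under 0.05, groups apart in 12, and 0 called. The median log2 difference was −0.30, and −0.22 without vehicle library 1. The 13 were 6 without RECTAS library 2 or vehicle library 3, and 7 without RECTAS library 1. Usp18, a protease that removes ISG15, stood at 17.6, 14.5 and 19.2 TPM against 9.47, 10.5 and 12.1 TPM. Ddx58, the RNA sensor RIG-I, stood at 16.9, 16.3 and 18 TPM against 14.7, 13.2 and 13.5 TPM, and Zbp1, a sensor of Z-form nucleic acid, at 17, 16.8 and 15.9 TPM against 9.86, 11.2 and 14.3 TPM. The RECTAS libraries differed among themselves: relative to each gene's mean, the list's median was −0.26 and −0.25 in libraries 1 and 2 but 0.12 in library 3, inside the vehicle range of 0.10 to 0.19. Without library 3 the median difference was −0.39, with 31 of 32 members lower and 18 under the unadjusted threshold. Library 3 also held the highest level of summed macrophage markers (603.7 TPM), and library 2 the lowest (337.2 TPM). The interferon gamma list had 18 of 19 members lower with a median of −0.25 (−0.39 when RECTAS library 3 was left out, −0.15 for RECTAS library 2 and −0.12 for vehicle library 1), and its per-library medians were again high in RECTAS library 3, at 0.23 against −0.30 and −0.41 in the others.

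The markers of sinusoidal endothelium, the lining of the liver's capillaries, were lower in 11 of 14 members, with 4 at an unadjusted p under 0.05 and a median of −0.24 (−0.26 without vehicle library 1, but −0.13 without vehicle library 3). The 4 were 0 without RECTAS library 2 and 1 without RECTAS library 1 or vehicle library 3. Their summed level was 164.8, 162.4 and 204 TPM under vehicle and 143.2, 140.7 and 172 TPM under RECTAS, with RECTAS library 3 inside the vehicle range. Lyve1, a hyaluronan receptor, stood at 10.3, 5.62 and 5.69 TPM against 3.69, 4.07 and 4.74 TPM. Kdr, a receptor for VEGF, stood at 9.38, 8.45 and 11.1 TPM against 6.79, 5.94 and 8.10 TPM. In bulk tissue, fewer cells of a type and less RNA per cell cannot be told apart. The endothelial and macrophage sums both moved with the interferon lists across the 3 RECTAS libraries, but not across the vehicle libraries. There both sums were highest in library 3 (204 and 523.5 TPM), and the type I and gamma medians in library 1 (0.19 and 0.32). Erythroid and B cell sums were also highest in RECTAS library 3 (618.8 and 41.75 TPM). The part of cell types in those lists was not tested. Stellate cell markers overlapped, summing to 151.6 to 178.4 TPM under vehicle and 145.8 to 173 TPM under RECTAS.

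**Figure D4:**
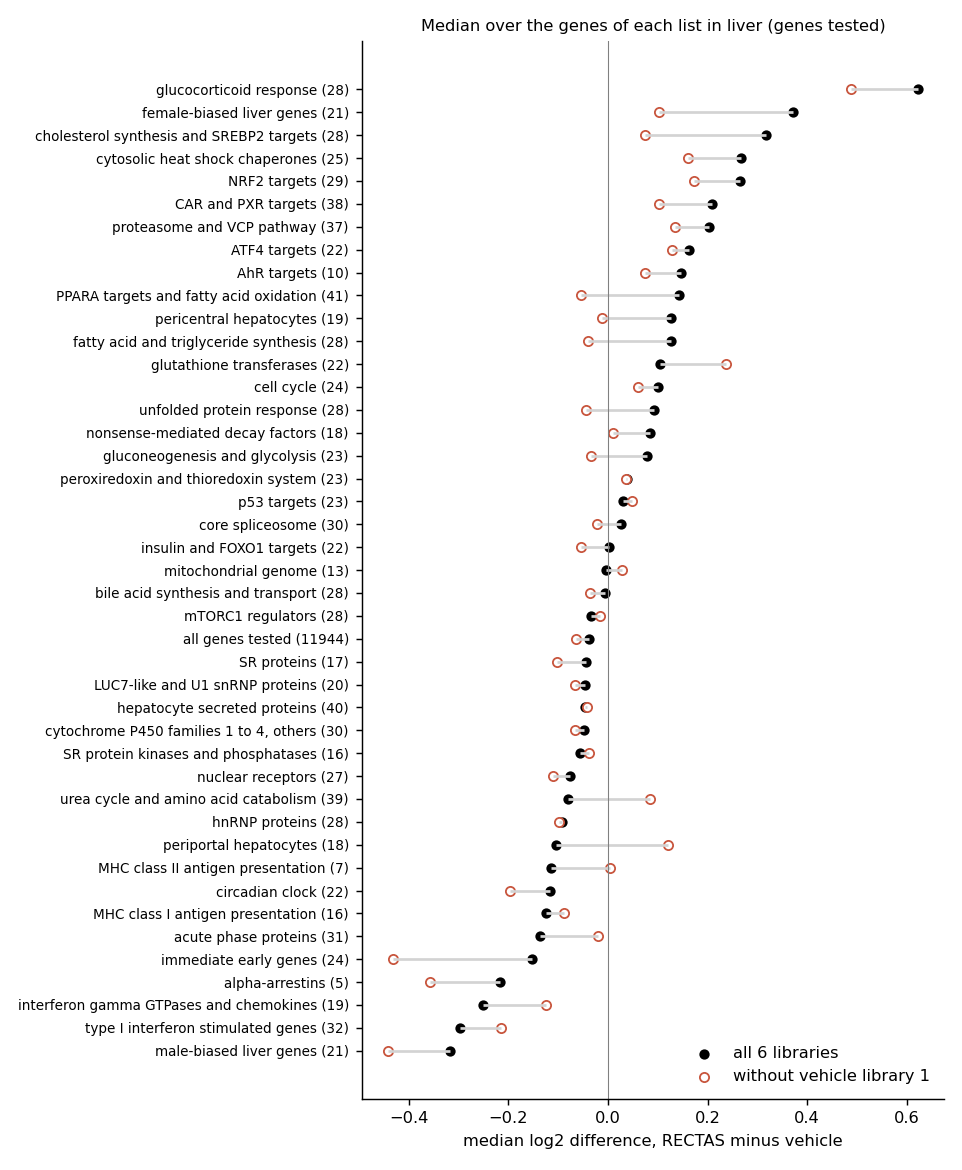
Median log2 difference (RECTAS minus vehicle) over the tested genes of each list, with all 6 liver libraries (black) and without vehicle library 1 (open), and the number of genes in brackets. Glucocorticoid response genes lie highest (0.62 and 0.49), and periportal genes move from −0.10 to 0.12 when vehicle library 1 is left out.

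Several groups of metabolic genes depended on vehicle library 1. PPARA targets, the genes of fatty acid oxidation, were higher in 32 of 41 with it (median 0.14) and in 14 of 41 without it (median −0.05). Over all 11944 genes tested, 4774 were higher with it (median −0.04) and 3876 without it (median −0.06). Without that library the PPARA targets thus lay near all genes tested and not clearly below them. Cholesterol synthesis genes were higher in 23 of 28 both with that library (median 0.32) and without it (median 0.07). Their median moved and their count of higher members did not. Fatty acid synthesis genes had a median of 0.13 with that library and −0.04 without it. Periportal genes, those of hepatocytes near the portal vein, had medians of −0.10 with it and 0.12 without it, and amino acid catabolism genes of −0.08 and 0.08. Pericentral genes had medians of 0.13 and −0.01. Other libraries moved some of these medians too: leaving out vehicle library 2 gave 0.24 for PPARA targets, 0.20 for fatty acid synthesis, 0.22 for pericentral genes and −0.16 for amino acid catabolism. Leaving out RECTAS library 3 gave 0.05 for fatty acid synthesis, 0.04 for pericentral genes and −0.13 for amino acid catabolism. Ass1, Hal and Gls2, 3 periportal enzymes, were over 2 times as high in vehicle library 1 as in vehicle libraries 2 and 3. Hal, for example, stood at 454, 163 and 160 TPM against 186, 169 and 164 TPM.

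Sex-biased lists depended on single libraries. Of 21 male-biased genes, 16 were lower with a median of −0.32, and the median was −0.44 when vehicle library 1 was left out but −0.01 when vehicle library 3 was and −0.20 when RECTAS library 3 was. Cyp2d9, a male-biased cytochrome P450, stood at 48.3, 60 and 107 TPM against 31.6, 40.1 and 27.0 TPM. Mup7 and Mup20, whose reads may be shared with other urinary protein genes, were extreme in single vehicle libraries: Mup7 stood at 83.3 TPM in library 3 and at 2.85 to 8.16 TPM elsewhere, and Mup20 at 238 TPM in library 1 and at 44.1 to 90.6 TPM elsewhere. Of 21 female-biased genes, 14 were higher with a median of 0.37, which was 0.10 without vehicle library 1 and 0.20 without RECTAS library 3. Cyp3a16 and Cyp3a41b, near-identical relatives, stood at 6.30, 152 and 42.2 TPM and at 2.43, 126 and 32.0 TPM under vehicle, against 187, 181 and 251 TPM and 154, 138 and 325 TPM under RECTAS. The vehicle libraries were far apart from each other in both genes.

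Transcripts of the CLK kinases and of Srsf6 did not differ detectably. The kinases Clk1, Clk2, Clk3 and Clk4 differed by −0.18 (SE 0.16), 0.01 (0.10), 0.04 (0.11) and −0.16 (0.12), all with overlapping groups. Clk1 stood at 70.9, 49.7 and 48.6 TPM against 51.3, 43.8 and 52.4 TPM, with vehicle library 1 as the highest. Srsf6 stood at 41.7, 47.9 and 55.6 TPM against 48.9, 49.1 and 51.3 TPM (0.05, SE 0.11, and −0.05 without vehicle library 1).

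Genes of the splicing machinery differed by small amounts. Beside the counts of lower members below, 7170 of all 11944 genes tested were lower. Luc7l2, a U1 snRNP-associated protein that shapes choice of the 5′ splice site, stood at 72.4, 95.3 and 91.1 TPM under vehicle and at 53.6, 52.9 and 47.4 TPM under RECTAS. The RECTAS values were all below the lowest vehicle value, which was in library 1 (1.68-fold lower, log2 −0.73, SE 0.12, limma adjusted p = 0.15). Without vehicle library 1 Luc7l2 fell by 0.85 (adjusted p = 0.0432). With any other library left out, Luc7l2 was not called (limma adjusted p of 0.268 to 0.491). Its relative Luc7l3 stood at 24.7, 21.9 and 21.2 TPM against 18.1, 16.1 and 17.6 TPM, and Prpf39, another U1 protein, at 9, 9.50 and 9.80 TPM against 7.63, 6.93 and 6.66 TPM. The U1 and LUC7-like list as a whole had 14 of 20 lower with a median of −0.05, which turned to 0.004 after median ratio scaling and ran from −0.08 to −0.02 when any 1 library was left out. Among hnRNP genes, whose proteins coat nascent RNA, 21 of 28 were lower, 5 at an unadjusted p under 0.05, with a median of −0.09 and −0.04 after median ratio scaling. The 5 were 2 to 4 without any library but vehicle library 1. Hnrnpu stood at 99.1, 73.8 and 73.3 TPM against 68.1, 61.2 and 61.7 TPM. Of 17 SR protein genes 10 were lower (median −0.04, but 0.004 after median ratio scaling and 0.04 without vehicle library 3). Srrm2 stood lower, at 113, 98.6 and 102 TPM against 82.6, 84.0 and 89.5 TPM, and Srsf4 higher, at 25.4, 29.5 and 29.9 TPM against 32.6, 35.6 and 38.2 TPM.

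The liver effect was then set against the mean of the effects in lung and colon, in 1 limma fit of all 18 libraries with 17537 genes. The test asks in which genes the RECTAS difference in liver was unlike that of the other tissues. It called 12 genes (0.0684%), 3 with a higher liver effect (0.0171%) and 9 with a lower one (0.0513%). Under an unadjusted p of 0.05 lay 1508 genes (8.6%), 1.72% with a higher and 6.88% with a lower liver effect. Those higher were Arrdc2, Ddit4 and Srxn1. Those lower were Txnip, Phlda1, Id3, Gbp11, Gm32511, Gm45724, Gm18776, Gm28036 and Adh6-ps1. The count was 3 without liver RECTAS library 3 or lung vehicle library 2 and 31 without liver vehicle library 2. It was 0 with the replicate block within tissues and 4 (Gm32511, Gm45724, Arrdc2 and Ddit4) with 1 shared by same-numbered libraries of the tissues. It fell to between 5 and 7 without colon RECTAS library 1 or 2, colon vehicle library 2 or 3, liver RECTAS library 2, liver vehicle library 3, lung RECTAS library 1, 2 or 3, or lung vehicle library 1.

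Over the 27 alternatives without a block shared by the tissues, Txnip kept its call in more than any other of the 12. In lung it stood at 493, 422 and 377 TPM under vehicle and at 505, 552 and 423 TPM under RECTAS, and in colon at 721, 740 and 730 TPM against 768, 877 and 796 TPM. The liver difference of −1.0 thus contrasted with 0.20 in lung and 0.15 in colon (difference −1.17, SE 0.16, limma adjusted p = 0.0114). The call held in 26 of 27 alternatives and was lost with the replicate block (adjusted p = 0.123). It was also lost with a block shared by same-numbered libraries of the 3 tissues (0.0744), an alternative chosen after seeing the data. Gm45724, kept in 25 of 27, also kept its call with that shared block (limma adjusted p = 0.0294). Phlda1 differed by −1.22 in liver, 0.24 in lung and 0.53 in colon (difference −1.60, adjusted p = 0.036, kept in 11 of 27 alternatives). Id3 differed by −0.97 in liver, −0.20 in lung and −0.03 in colon (difference −0.86, adjusted p = 0.036, kept in 7 of 27). Srxn1 differed by 0.98 in liver, −0.02 in lung and 0.07 in colon (difference 0.96, adjusted p = 0.036, kept in 11 of 27).

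Ddit4 and Arrdc2 were also higher in lung under RECTAS. Ddit4 stood in lung at 16.3, 22 and 30.9 TPM against 52.1, 63.6 and 42.1 TPM, and in colon at 20.3, 16.0 and 23.3 TPM against 26.8, 28.9 and 20.3 TPM. Its vehicle level in liver, 2.52 to 4.43 TPM, was below that of both other tissues. The liver difference of 2.36 exceeded 1.18 in lung and 0.33 in colon (difference 1.60, SE 0.27, limma adjusted p = 0.0459, kept in 8 of 27 alternatives). Arrdc2 differed by 1.61 in liver, 0.79 in lung and −0.24 in colon (difference 1.33, adjusted p = 0.0228, kept in 22 of 27). In lung it stood at 15.7, 17.8 and 16.8 TPM against 32.0, 34.4 and 23.7 TPM, with groups apart, and in colon the groups overlapped.

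**Figure D5:**
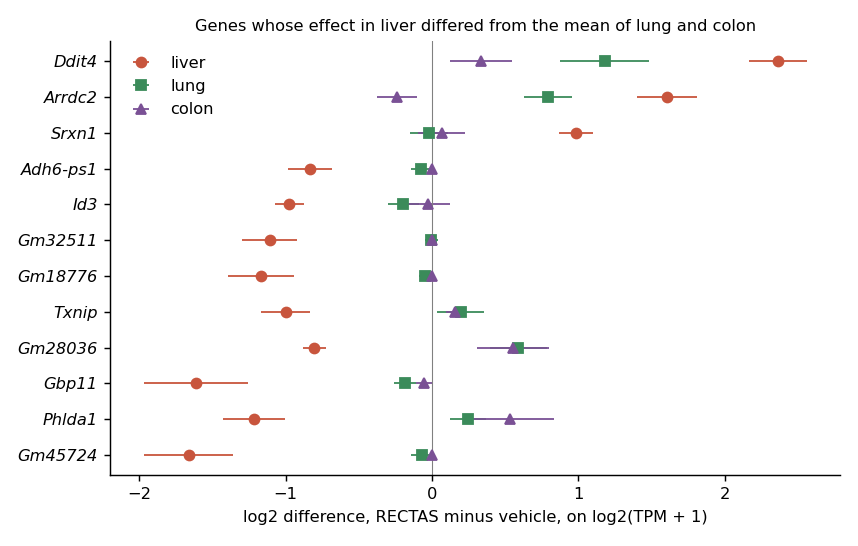
Log2 difference (RECTAS minus vehicle, on log2(TPM + 1)) in liver, lung and colon for the 12 genes whose liver effect differed from the mean of the other 2, with bars for the standard error of each tissue's difference (3 against 3 libraries). Ddit4 lies at 2.36, 1.18 and 0.33, and Txnip at −1.0, 0.20 and 0.15.

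Of the other 6 genes in that test, Gm32511, Gm45724, Gm18776, Adh6-ps1 and Gbp11 stood at no more than 0.58 TPM in any lung or colon library. For these 5 the test restates the liver difference. Gm32511 and Gm18776 also passed its filter of 1 TPM in 3 libraries only with their higher vehicle livers. Gbp11, an interferon-inducible GTPase gene annotated as a polymorphic pseudogene, stood in liver at 10.1, 24 and 15.2 TPM under vehicle and at 5, 4.58 and 3.70 TPM under RECTAS, and at no more than 0.58 TPM in any lung or colon library. Adh6-ps1, an alcohol dehydrogenase pseudogene, stood at 6.96, 7.10 and 8.27 TPM against 4.48, 3.84 and 3 TPM. Gm28036, which was measured in all 3 tissues, stood in liver at 2.45, 2.45 and 2.90 TPM against 0.98, 1.21 and 0.99 TPM. In lung Gm28036 stood higher under RECTAS, at 3.43, 3.65 and 3.94 TPM against 6.75, 7.25 and 4.41 TPM. RECTAS libraries were thus wholly below vehicle in liver and wholly above it in lung for Gm28036.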

How the data were processed

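Livers were taken from 7-week-old C57BL/6N mice 8 h after the first oral dose. RNA came from a TRIzol and chloroform extraction, and libraries were made from polyadenylated RNA with TruSeq stranded mRNA reagents, per the labels' protocols. The authors deposited a TPM value per gene and library, and these values entered unchanged. The submitters' processing notes list HISAT2 2.2.0, RSEM 1.3.0 and the build GRCm38, with no role or order. The annotation release is not given in the sources used here, and 55141 gene identifiers matched GENCODE M21, which supplied coordinates. TPM holds no read depth, so no counting interval could be given, and higher values of abundant genes lower all others.

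The filter kept any gene that reached 1 TPM in 3 or more of the 6 liver libraries. Its values were transformed to log2(TPM + 1) and tested with limma 3.58.1 (mean-variance trend, two-sided, R 4.3.3), with Benjamini-Hochberg adjustment over all genes and a threshold of 0.05. The liver effect was compared with the mean of the lung and colon effects in 1 fit of 18 libraries. The procedure was tested on simulated data. Lists are described by counts and medians without a test. Python 3.11.15 made the tables and figures. The members, lists and tests were chosen with earlier results of these data known.

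Named genes were those called, the 20 protein-coding genes per direction with the smallest p and separated groups, up to 4 such members per list, Srxn1, Clk1 to Clk4, Srsf6 and the markers, and 5 per direction from the comparison of tissues. Not all of these are printed, and some genes are not reported here. Further genes, chiefly list members that overlapped between groups, went the other way or rested on single libraries (Fkbp5, Per1, Mt2, Hmox1, Gclm, Gstp3, Trib3, Chac1, Arrdc3, Egr1, Myc, Noct, Ciart, Hal, Ass1 and Mup7 among them), were chosen after their values were seen. The alternatives varied the pseudocount (0.1 or 5 TPM), the filter (none, or 5 TPM), the scaling (3 others), the variance estimate, the replicate block, the libraries in the fit (all 18, or without each in turn) and the threshold (0.1).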

Additional observations from a re-analysis of the deposited data

Results flagged for a closer look

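In 12 genes the RECTAS effect in liver differed from the mean effect in lung and colon by the test of the difference itself (limma, Benjamini-Hochberg adjusted p of 0.0114 to 0.0459 over 17537 genes). The differences in log2 effect, liver minus the mean of the others, were −1.10 for Gm32511, −1.63 for Gm45724, −1.17 for Txnip, −1.15 for Gm18776 and 1.33 for Arrdc2. They were −1.60 for Phlda1, −1.38 for Gm28036, −0.79 for Adh6-ps1, −1.49 for Gbp11, −0.86 for Id3, 0.96 for Srxn1 and 1.60 for Ddit4. Gm32511 stood in liver at 2.56, 2.27 and 3.33 TPM under vehicle and at 0.61, 1.09 and 0.50 TPM under RECTAS. Gm45724 stood at 8.80, 13.7 and 14.7 TPM against 3.54, 4.08 and 2.09 TPM, and Gm18776 at 5.25, 3.45 and 3.82 TPM against 1.77, 1.31 and 0.84 TPM. These 3 were listed at no more than 0.16 TPM in any lung or colon library, and Adh6-ps1 and Gbp11 at no more than 0.58 TPM. For these 5 genes the test of the difference thus restates the difference in liver. Genes entered it at 1 TPM or more in at least 3 of the 18 libraries. Gm32511 and Gm18776 passed that filter only with their vehicle livers, so a lower liver effect was built into their being tested. The calls of Gm32511, Gm45724 and Gm18776 were kept in 24 of 26, 25 of 27 and 21 of 26 alternatives, in that order, against 9 of 27 for Adh6-ps1, 7 of 27 for Gbp11 and 11 of 27 for Gm28036. With the replicate number blocked within each tissue all 12 calls were lost, and 8 of the 12 with a block shared by the tissues.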

How the results depend on the processing

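The count of genes called in liver, 2 as reported, became 134 in 1 fit of all 18 libraries, 7 with a filter of 5 TPM, 5 with median ratio scaling, 5 with quantile normalisation, 8 with TPM rescaled to leave out mitochondrial and the 20 highest genes, 6 with robust variance and 8 at a threshold of 0.1. It was 0 with the replicate block and 1 to 6 without each library. With no filter the 2 genes called were Gm44313 and Gm44419. The count for liver against the other tissues, 12, became 21 with median ratio scaling, 25 with a pseudocount of 5 TPM, 22 with quantile normalisation, 0 with the block within tissues, 4 with a block shared by same-numbered libraries of the tissues (chosen after seeing the data), and 3 to 31 without each library. Genes under the unadjusted threshold numbered 751 higher and 597 lower with median ratio scaling, 665 and 629 with quantile normalisation, and 253 to 629 and 521 to 984 without each library. Same-numbered liver libraries did not deviate together (correlations 0.0281, −0.0137 and −0.0212), nor did same-numbered libraries of different tissues (−0.149 to 0.128, against −0.156 to 0.152 for other numbers), and the labels do not say whether 1 animal gave all 3 tissues. Of the 146 named genes, 4 changed sign in some alternative, and none of these was called. Without each library, Srsf6 ran from −0.0521 to 0.152, Apoa1 from −0.184 to 0.0774, Clk3 from −0.0242 to 0.123 and Clk2 from −0.0413 to 0.0817. The cause of these shifts was not tested. TPM without counts limits what can be said of low values and of short genes.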
